A study of Mus musculus with 162 samples.

Results

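Interscapular brown adipose tissue (iBAT) late in a fast was compared with the same depot in fed mice. The libraries were chosen by organ and hours of fasting alone: 5 of the late fast, taken after 18 h (3 libraries) and 22 h (2 libraries) without food, and 6 of the fed state, taken at 0 h and 2 h (3 libraries each). These 11 libraries stand among 18 of iBAT and 162 in the whole series. The remaining 22 h library, replicate 1, was left out by the authors and enters no comparison here unless it is named.

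The mice were group-housed male C57Bl/6J aged 8 to 9 weeks, 18 in all and 3 at each of 6 fasting periods, and 9 organs of each were sequenced. All groups share strain, sex and age and differ in hours without food; mice were killed at 1 clock time, early in the dark phase, so that food was withdrawn at different hours of the day. Each library was made from 1 depot of 1 mouse, hence replicates are separate animals. The comparison asks which genes of brown fat stand at another level once the fast has lasted most of a day.

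Brown adipocytes burn fatty acids to make heat, through the proton leak that Ucp1 opens in the inner mitochondrial membrane. In the fed state insulin drives them to take up glucose and to build fatty acids and sterols, while in fasting they draw on stored triglyceride and on lipid from the blood. The depot also holds endothelium, macrophages, nerve and fibroblasts, and it borders on skeletal muscle of the back.

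Total counts, in units of 1e6, were 6.98 to 16.2 in the fed libraries, 27.8, 9.33 and 10.3 at 18 h and 3.16 and 8.84 in 22 h replicates 2 and 3. Detection was taken to begin at 3 counts, which is 0.951 counts per 1e6 (CPM) in the shallowest library. Levels are given as CPM with the total scaled by the TMM factor of the library, called normalized CPM. Genes were tested when they reached the CPM of 10 counts in the median library (1.04) in at least 3 libraries, which left 14529. A differentially expressed gene (DEG) has a Benjamini-Hochberg adjusted p under 0.05 in the quasi-likelihood test of edgeR and a log2 fold change (log2FC, fasted over fed unless stated) beyond 1 in either direction.

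The 22 h libraries stood apart from all the others. In each library the log2 level of every gene, less its mean over the fed libraries, was set against the log2 of its exonic length. The slope of that line lay between -0.116 and 0.105 in the fed libraries and at -0.0684, -0.113 and -0.0877 at 18 h, but at -0.561 and -0.412 in 22 h replicates 2 and 3, where short genes were high and long genes low. Genes under 1000 bases had a median level 1.34 and 1.03 (log2) above the fed mean in these 2 libraries, and genes over 5000 bases one of -0.99 and -0.59. The excluded 22 h library had a slope of -0.393, and among libraries of the times between, 12 h replicates 1 and 3 had -0.227 and -0.226.

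The mitochondrial genome and muscle genes set libraries apart too. Transcripts of the mitochondrial genome took up 19.5 to 36.2% of the counts in the fed libraries and 20.2 to 24.3% at 18 h, but 5.47% in 22 h replicate 2 and 11.8% in replicate 3. Of the 30 skeletal muscle markers all had counts in the 11 libraries and 29 were tested, with Acta1, the actin of the muscle fibre, as the most abundant. Their summed normalized CPM was 247, 1058 and 7427 at 0 h, 454, 1234 and 8091 at 2 h, 695, 646 and 2393 at 18 h and 5225 and 3829 at 22 h. Libraries high in muscle thus stood in every fed time point and at 22 h, and all late sums fell inside the fed range. The mean log2 sum was 0.36 higher in the late group (exact permutation test over 462 splits, two-sided p = 0.740). No muscle marker lay beyond the fed range in every late library (1.84% of all genes lay above it and 2.54% below). At 18 h and 22 h 0 markers were DEGs, beside 0.00688% and 30.6% of all genes. The late median log2FC of -0.34 joins opposite sides: at 18 h all 29 were lower than fed (median -1.29; 0 with an unadjusted p under 0.05), and at 22 h 16 were higher and 13 lower (median 0.37). The labels give a lane number and no run, and a lane is named below by its number alone. The 22 h libraries carry lane numbers 1 and 3, which no fed library carries, so lane and the 22 h fast cannot be told apart. The lane numbers of 18 h replicates 1 and 3, 8 and 5, are also those of 5 of the 6 fed libraries. Whether these were sequenced in the same run is not given. Library numbers of 22 h replicates 1 and 2 lie far from those of the other iBAT libraries.

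**Figure D1:**
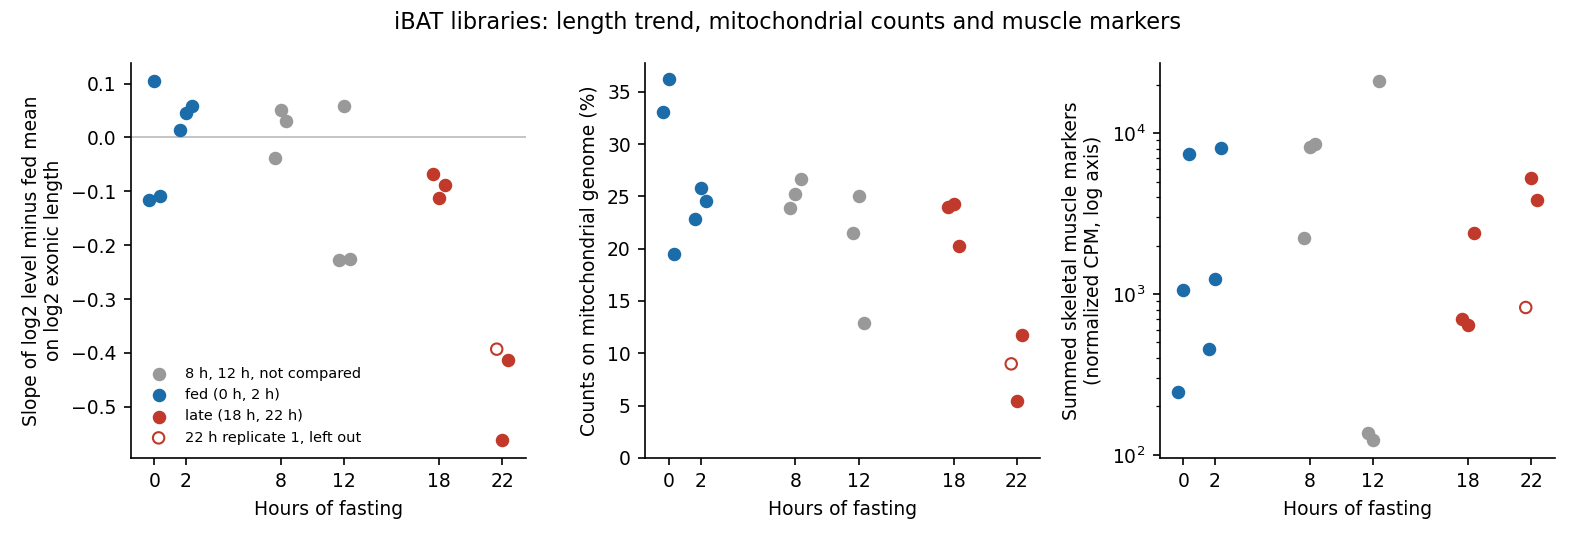
Each point is 1 of the 18 iBAT libraries, placed by its hours of fasting, with the 3 replicates of a time set side by side. The left axis gives the slope of gene level on exonic length (log2 per log2), the middle one the percent of counts on the mitochondrial genome and the right one the summed normalized CPM of 30 skeletal muscle markers on a log axis; blue is fed, red late, grey 8 h and 12 h, which were not compared, and the open circle the excluded 22 h library. The 22 h libraries have the lowest slopes, -0.561 to -0.393, while muscle varies widely between replicates.

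Ucp1, the uncoupling protein that defines the brown adipocyte, lay between 2679 and 8024 normalized CPM in the fed libraries with a median of 3556, at 4646, 4809 and 3999.7 at 18 h and at 5579 and 3891 at 22 h. All 5 late libraries fell inside the fed range, and the highest value of all was that of 0 h replicate 1. The log2FC was 0.07 (SE 0.258, adjusted p = 0.881), and -0.25 once offsets took the length trend out of each library. Cidea, a lipid droplet protein of brown fat, lay between 1577 and 2249 with a median of 1876, then at 2079, 2306 and 2446 at 18 h and 4381 and 3550.4 at 22 h. Its 18 h values reached into the fed range and both 22 h values were above it. Over all late libraries the log2FC was 0.63 (SE 0.205, adjusted p = 0.123), and 0.13 (0.546) with length offsets. At 22 h alone Cidea rose by 1.06 (adjusted p = 0.00115), which became 0.21 (0.375) with length offsets. The 12 brown adipocyte markers all had counts in every group, and their summed level of 9104, 9697 and 8964 at 18 h and 18226 and 12425 at 22 h was no lower than the fed range of 6129.8 to 13051. Ucp1 is the most abundant of them, and the single markers did not move together at 22 h, where 3 rose and 3 fell (13.3% and 17.3% of all genes did). At that time 4 lay below the fed range and 3 above it, near the shares over all 14529 genes (28.6% below and 23.6% above), with a median of -0.33 (-0.51 with length offsets) beside 0.09 at 18 h.

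Among the 27 thermogenesis genes tested, 0 lay beyond the fed range in all 5 late libraries. Over all genes 1.84% lay above it and 2.54% below, so 0 among 27 is near these shares. The median log2FC of the list was 0.06 beside -0.04 over all genes. Acot11, a thioesterase of brown fat that is induced in the cold, had 386, 222 and 308 normalized CPM at 18 h and 122 and 114 at 22 h against a fed range of 291 to 680.1. Adrb3, the beta-adrenergic receptor through which noradrenaline switches on heat production, had 93.7, 95.1 and 57.1 and then 69.7 and 85.4 against 68.7 to 178. Acot11 overlapped the fed range at 18 h and lay below it at 22 h, and Adrb3 lay inside it in all late libraries but 18 h replicate 3, with log2FC -1.15 and -0.73 (adjusted p = 0.123 and 0.125). At 22 h 4 rose, 7 fell and 16 were not called (median -0.68), beside 13.3% risen and 17.3% fallen over all genes, and with length offsets 2 rose and 5 fell (median -0.44), beside 9.59% and 8.67%. Of the cytochrome oxidase subunits, Cox8b rose by 2.33 and Cox7a1 by 1.97 on the log2 scale, and Prdm16, the regulator of brown fat identity, fell by 2.04. With length offsets these became 1.08, 0.88 and -1.18 (edgeR adjusted p = 0.00319, 0.013 and 0.00789). Cox7a1, Prdm16, Tpi1 and Ldhb were chosen after their values were seen, as were Acot2, Parm1, Slc5a3, Ces1f, Retsat, Pxmp2, Cyp51, Sc5d, Insig1, Scd2, Cpt1a, Ppara, Angptl4 and Kdr.

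Markers of other cells moved with the fast in part. The 7 general adipocyte markers summed to 15731 to 19683 in the fed libraries, to 18836, 21985 and 21044 at 18 h and 32244 and 28320.4 at 22 h, led by the fatty acid carrier Fabp4. The 8 endothelial markers, led by the junction protein Cdh5, summed to 672 to 1479.5 when fed, 718, 715 and 686 at 18 h and 390.0 and 455 at 22 h. Adipocyte sums were thus highest and endothelial sums lowest at 22 h. Kdr, the receptor for vascular growth factor on endothelium, lay at 133, 99.1 and 87.6 normalized CPM at 18 h and 35.0 and 49.3 at 22 h, all below the fed range of 137 to 309, with log2FC -1.21 (-0.88 with length offsets). Of 7 smooth muscle and pericyte markers 4 fell and 0 rose at 22 h (3 and 0 with length offsets). Of 8 fibroblast markers 3 fell and 0 rose (0 and 1 with offsets). Over all genes 17.3% fell and 13.3% rose at that time, and 8.67% and 9.59% with offsets. In a bulk sample, fewer cells of a type and less RNA per cell cannot be told apart. Blood markers, led by the beta globin Hbb-bs, summed to 135, 502 and 138 at 18 h and 513 and 650.0 at 22 h against 93.8 to 445, the upper end being that of 0 h replicate 3. The white adipocyte genes Hoxc9 and Hoxc10, the skin keratins Krt5, Krt14 and Krt1, and the liver gene Fgb had 0 counts in all 11 libraries, while other members of these lists were present. White adipocyte sums, led by Retn, were 296, 187 and 118 at 18 h and 333 and 419.7 at 22 h against 83.8 to 324, skin sums, led by Krt10, 5.92, 5.91 and 6.05 and 13.7 and 13.1 against 2.66 to 7.91, and liver sums, led by Cyp2e1, 267, 453 and 285 and 258 and 415 against 85.6 to 381. Of the tested genes 4 of 5, 2 of 2 and 3 of 3 had a positive log2FC. The part of these cell types in the gene levels that follow was not tested.

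Across all genes, 18 h and 22 h together gave 0 DEGs against the fed state by edgeR (0% of 14529, 0 higher and 0 lower), with 3858 genes (26.6%) at an unadjusted p under 0.05, 2172 higher (14.9%) and 1686 lower (11.6%). The lowest adjusted p was 0.0779, shared by Acot1 and Parm1, and 932 genes were tied at 0.123. DESeq2 called 664 DEGs on the same libraries (4.57%), 473 higher (3.26%) and 191 lower (1.31%). In a fit that also held the 8 h and 12 h libraries and gave each fasting time its own group, edgeR called 1842. The main fit has only a late and a fed group, so the gaps between times within a group count as spread there. The part of each change in the count was not tested. Without 18 h replicate 1, the deepest library, edgeR called 6, with Acot1 and Parm1 among them at an adjusted p of 0.0177; Ces1f, Gldn, Mmd2 and the calcium release channel Ryr2, all at 0.0466, were the others, and Gldn, Mmd2 and Ryr2 were chosen after their values were seen. All 5 late libraries lay above all 6 fed libraries for 268 genes (1.84%) and below them for 369 (2.54%), where the former had a median exonic length of 2713 bases and the latter one of 8020, beside 4093 over all genes.

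The late times taken singly differed widely. At 18 h edgeR called 1 DEG, Acot1 (0.00688% of 14529, 1 higher at 0.00688% and 0 lower at 0%), with 1779 genes (12.2%) at an unadjusted p under 0.05, 704 higher (4.85%) and 1075 lower (7.4%), and DESeq2 called 34. At 22 h it called 4447 (30.6%), of which 1936 rose (13.3%) and 2511 fell (17.3%). The risen genes had a median exonic length of 1654 bases and the fallen ones one of 7421. With length offsets 2654 DEGs were called at 22 h (18.3%), 1394 higher (9.59%) and 1260 lower (8.67%); 1872 genes were called in the same direction in both fits, 42.1% of the first list and 70.5% of the second. Tested directly, 22 h differed from 18 h in 3307 genes (22.8%), 1483 higher (10.2%) and 1824 lower (12.6%), and in 1866 with length offsets. With 2 libraries at 22 h these counts hung on each of them: without 22 h replicate 2 there were 2851 DEGs against fed and 1674 against 18 h, and without replicate 3 there were 5788 and 5036, where the lone library is taken to vary like the other groups. At 18 h, where the fit holds other libraries, all 3 stood above the fed range for 452 genes (3.11%) and below it for 489 (3.37%).

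Acot1, a cytosolic thioesterase that frees fatty acids from acyl-CoA and a known target of PPARalpha, lay between 4.81 and 7.22 normalized CPM in the fed libraries (median 6.26), at 12.4, 24.0 and 26.2 at 18 h and at 24.2 and 13.1 at 22 h. Every late library was above every fed one, and 18 h replicate 1 and 22 h replicate 3 were the lowest of the late group. At 18 h Acot1 rose by 1.77 (SE 0.231, adjusted p = 0.0486), with 1.76 and 4.42e-07 by DESeq2. Each single fed library and 18 h replicates 2 and 3 were needed for the edgeR call, whose adjusted p ran from 0.00449 without 18 h replicate 1 to 0.692 without replicate 2, with log2FC between 1.57 and 2.03. The call was also lost with 22 h in the fit as a group of its own (adjusted p = 0.0812) and with the replicate number as a block (0.152). It was lost too with the muscle marker score as covariate (0.0856) and within lanes 5 and 8 (0.906). Of 18 h these lanes hold only replicates 1 and 3. Over both late times the log2FC was 1.71 (adjusted p = 0.0779), and 1.75 with length offsets. Acot1 has close paralogs in a cluster on chromosome 12, of which the mitochondrial Acot2 had 35.2, 35.6 and 39.9 at 18 h and 55.7 and 30.7 at 22 h against 22.2 to 37.8 and a log2FC of 0.34. Only reads that map to 1 place were counted, so the levels of both are uncertain to the extent that shared sequence was lost.

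Parm1, a membrane mucin, and Slc5a3, the myo-inositol transporter, had the lowest p beside Acot1. Parm1 lay between 123 and 194 normalized CPM when fed, at 87.0, 56.5 and 61.8 at 18 h and at 50.3 and 36.3 at 22 h. Slc5a3 lay between 15.1 and 38.5, then at 9.91, 6.65 and 9.40 at 18 h and 6.04 and 7.90 at 22 h. For both genes every late library was below every fed one. The log2FC were -1.45 and -1.61 (SE 0.216 and 0.258, adjusted p = 0.0779 and 0.116), and -1.31 and -1.12 with length offsets. On the higher side stood the carboxylesterase Ces1f (log2FC 1.13), the retinol saturase Retsat (0.71) and the peroxisomal membrane protein Pxmp2 (1.38), all with adjusted p = 0.123. With length offsets these were 1.07, 0.69 and 0.87. Retsat had 270.1, 336 and 332 normalized CPM at 18 h and 358 and 353 at 22 h against a fed range of 180.3 to 228, and the other 2 likewise left the fed range in all 5. Ces1f stands in a cluster of near-identical esterase genes and its level is uncertain for that reason.

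**Figure D2:**
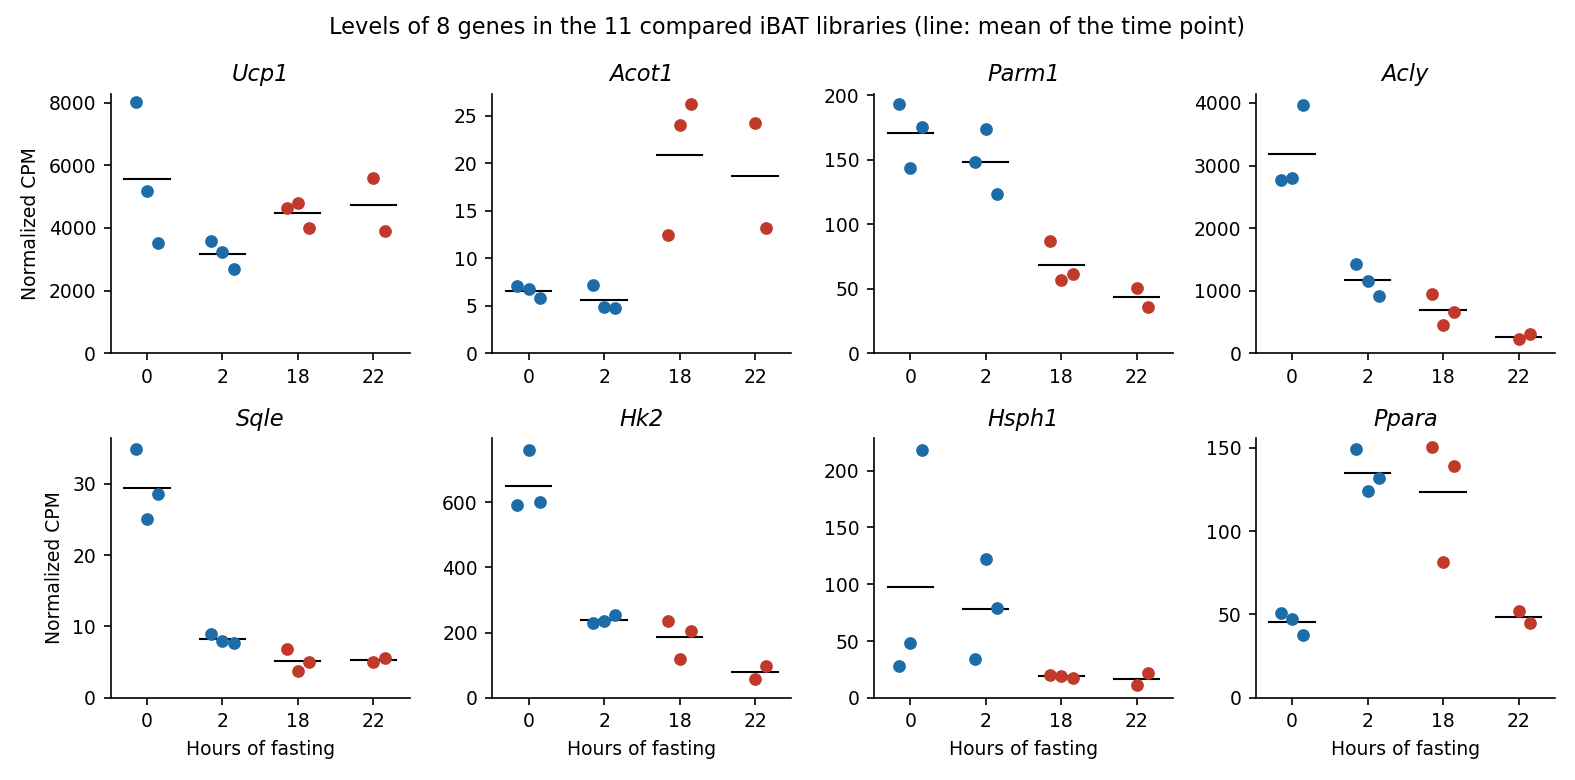
Normalized CPM (linear axes from 0) of 8 genes in the 11 libraries compared, by hours of fasting; blue points are fed libraries, red points late ones, and the black line is the mean of a time point. Acot1 stands above and Parm1, Sqle and Hsph1 below all fed libraries in every late one, Ucp1 does not separate, and Acly, Sqle, Hk2 and Ppara differ between 0 h and 2 h.

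Genes of fatty acid synthesis had mostly negative log2FC in the late fast against the whole fed group. Of the 20 tested, 17 had a negative log2FC, 11 had an unadjusted p under 0.05 on the lower side (11.6% of all genes did) and 0 on the higher, and the median was -0.69 (-0.43 with length offsets), beside -0.04 and 0.01 over all genes. By edgeR 0 were DEGs over both late times; at 22 h 8 fell and 0 rose, and with length offsets 2 fell, beside 17.3% and 8.67% fallen over all genes. DESeq2 called 8 lower and 0 higher over both times, beside 1.31% and 3.26% of all genes. Inside the fed group the list was already lower at 2 h than at 0 h, with 17 of 20 negative and a median of -0.54. Of the 20 genes 2 fell, beside 0.241% of all genes. Acly, which makes cytosolic acetyl-CoA from citrate, lay at 2770.0, 2798 and 3964 normalized CPM at 0 h, 1428, 1152 and 915 at 2 h, 947, 446 and 659 at 18 h and 219.8 and 311 at 22 h. The 0 h libraries were high, the 2 h libraries all far below them, and 1 late library, 18 h replicate 1, reached the 2 h range. The log2FC was -2.07 (SE 0.447, adjusted p = 0.123; DESeq2 0.000842). Acaca, the carboxylase that makes malonyl-CoA, lay between 580.1 and 993 when fed, at 534, 393 and 449 at 18 h and at 362 and 354 at 22 h, and Acss2, which makes acetyl-CoA from acetate, between 232.03 and 668, then 219, 138 and 153.6 at 18 h and 124 and 119.8 at 22 h. These 2 genes were the only ones of the list with every late library below every fed one (2.54% of all genes).

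The long genes of this list moved with the length trend. For Acaca the log2FC of -1.06 became -0.27 with length offsets, for Fasn, the fatty acid synthase, -1.11 became -0.59, and for Acss2 -1.40 became -0.92. For Acly and Mlxipl, the carbohydrate-responsive transcription factor ChREBP, offsets moved less (-2.07 to -1.97 and -1.39 to -1.21). Scd1, the main stearoyl-CoA desaturase, lay between 20381 and 30607 normalized CPM when fed, at 21858, 13445 and 14573 at 18 h and 20341 and 18390.2 at 22 h, with log2FC -0.58 (adjusted p = 0.123) and overlapping groups. Its paralog Scd2 had 305, 257 and 436 at 0 h, 71.4, 78.0 and 92.3 at 2 h, 89.9, 35.9 and 26.3 at 18 h and 14.95 and 25.7 at 22 h. Scd2 was low from 2 h on and lowest at 22 h, with a log2FC of -2.41 (adjusted p = 0.123).

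Cholesterol synthesis genes had mostly negative values. Of 21 tested, 18 had a negative log2FC, 13 with an unadjusted p under 0.05 (11.6% of all genes on that side) against 1 on the higher side, and the median was -0.78, hardly moved by length offsets (-0.74). At 22 h 5 fell, 1 rose and 15 did not pass, not far from the 17.3% fallen over all genes. By DESeq2 4 were lower over both late times, beside 1.31% of all genes. Sqle, the squalene epoxidase, lay at 34.9, 25.1 and 28.5 normalized CPM at 0 h, 8.99, 7.93 and 7.74 at 2 h, 6.81, 3.80 and 5.03 at 18 h and 5.09 and 5.56 at 22 h. It was the one gene of the list below the fed range in all 5 late libraries (log2FC -1.84, SE 0.425, adjusted p = 0.123), and the one DEG of the late fast against 0 h alone (-2.48, adjusted p = 0.0186), while against 2 h alone its log2FC was -0.60 (adjusted p = 0.293). Lanosterol synthase Lss (-1.19), the sterol dehydrogenase Nsdhl (-0.98), Cyp51, the demethylase of lanosterol (-1.03), and the sterol carrier Stard4 (-1.66) had adjusted p between 0.123 and 0.125. Against 2 h alone, a setting chosen after the values were seen, these were smaller too, at -0.58 for Lss, -0.43 for Nsdhl, -0.19 for Cyp51 and -0.89 for Stard4. With length offsets and the whole fed group Lss was at -0.74, Nsdhl at -1.11, Cyp51 at -0.91 and Stard4 at -1.53.

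The fed group was not uniform for these genes. In a comparison added after the values were seen, 2 h against 0 h, edgeR called 51 DEGs (0.351% of 14529), 16 higher (0.11%) and 35 lower (0.241%) at 2 h. Among them 5 of the 21 cholesterol synthesis genes fell and 0 rose, where the list's median log2FC was -0.89 beside 0.00 over all genes. Sqle fell by 1.84 (SE 0.242, adjusted p = 0.00687), and Sc5d, the lathosterol oxidase, by 1.85 (0.00687). Insig1, the sterol sensor that holds back SREBP processing, fell by 1.53 (0.012) and Acly by 1.45 (0.0362). Against 2 h alone, the late log2FC of Sc5d was 0.07 and that of Insig1 0.18, so that their negative values over the whole fed group came from the 0 h libraries. The 2 h call list was thin: without 2 h replicate 2 or replicate 3 edgeR called 0 DEGs, with 0 h replicate 2 left out 194, and without 0 h replicate 1, 0 h replicate 3 or 2 h replicate 1 it called 19, 19 and 12. At an unadjusted p under 0.05 there were 1264 genes, and DESeq2 called 109.

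Ppara, the nuclear receptor that switches on fatty acid oxidation in fasting, lay at 50.7, 47.3 and 37.5 normalized CPM at 0 h, 149, 124 and 132 at 2 h, 150.2, 81.4 and 139 at 18 h and 52.2 and 44.7 at 22 h. It was high at 2 h and 18 h and low at 0 h and 22 h, and rose by 1.58 from 0 h to 2 h (adjusted p = 0.00825), while late against fed gave 0.06 (adjusted p = 0.942). Angptl4, which inhibits lipoprotein lipase, had 71.6, 107 and 52.3 at 0 h, 255, 229 and 219 at 2 h, 134, 247 and 218 at 18 h and 387 and 278 at 22 h. It rose by 1.61 at 2 h (adjusted p = 0.0213), and the late libraries were spread on both sides of the 2 h level (late against fed 0.70, 0.26).

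Glucose genes had more negative than positive values. Of 43 tested, 30 had a negative log2FC, 8 had an unadjusted p under 0.05 on the lower side and 4 on the higher (11.6% and 14.9% of all genes did), with a median log2FC of -0.09. At 22 h 8 fell and 0 rose (median -0.33), 4 fell with length offsets, and 13 lay below and 6 above the fed range; the shares that fell and that lay below were near those of all genes at that time (17.3% and 28.6%). The triose isomerase Tpi1 and the lactate dehydrogenase subunit Ldhb lay above the fed range in all 5 late libraries. Of the 43 genes Pfkp alone lay below it, and over all genes 1.84% lay above and 2.54% below. Hk2, the hexokinase of insulin-responsive tissue, lay at 591, 762 and 600.4 normalized CPM at 0 h, 230.4, 234.7 and 254 at 2 h, 236, 119 and 204 at 18 h and 58.5 and 97.3 at 22 h. Slc2a5, the fructose transporter, lay at 22.7, 18.9 and 26.5 at 0 h, 6.46, 2.84 and 3.07 at 2 h, 5.13, 1.48 and 2.23 at 18 h and 2.23 and 0.890 at 22 h, with few counts in the late libraries. Among the libraries compared both were high only at 0 h, and both fell from 0 h to 2 h, by 1.44 and 2.46 (adjusted p = 0.0213 and 0.0307). Pfkp, a phosphofructokinase, had 58.1, 59.1 and 46.3 at 18 h and 32.8 and 32.03 at 22 h, all below the fed range of 63.1 to 102, with log2FC -0.92 (adjusted p = 0.123) and -0.34 with length offsets.

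Genes that burn fat had mostly small positive values. Of 29 genes of beta-oxidation and ketone metabolism, 23 had a positive log2FC, 15 with an unadjusted p under 0.05 (14.9% of all genes on that side) against 1 on the lower side, and the median was 0.34 (0.29 with length offsets). Besides Acot1, the acyl-CoA dehydrogenase Acads, the dienoyl-CoA reductase Decr1 and Etfa, which passes on electrons, lay above the fed range in all 5 late libraries. Of the 29 genes 0 lay below it. Over all genes 1.84% lay above and 2.54% below. Decr1 lay between 719 and 1137 normalized CPM when fed, at 1156, 1348 and 1392 at 18 h and 1849.8 and 1575 at 22 h (log2FC 0.61, SE 0.171, adjusted p = 0.123). At 22 h 5 genes rose and 2 fell, with and without length offsets, and the share that rose is near the 13.3% over all genes. Etfb, the partner of Etfa, had 31.0 to 50.1 when fed, 43.2, 45.3 and 43.6 at 18 h and 415 and 160.8 at 22 h. It stayed inside the fed range at 18 h and rose at 22 h by 2.86 (adjusted p = 0.000174; 2.01 with length offsets). Cpt1a, the liver-type carnitine palmitoyltransferase, went the other way: 14.3 to 24.2 when fed, 20.8, 27.7 and 27.1 at 18 h and 2.54 and 4.89 at 22 h, where it fell by 2.26 (adjusted p = 0.000348) and by 1.57 with length offsets.

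**Figure D3:**
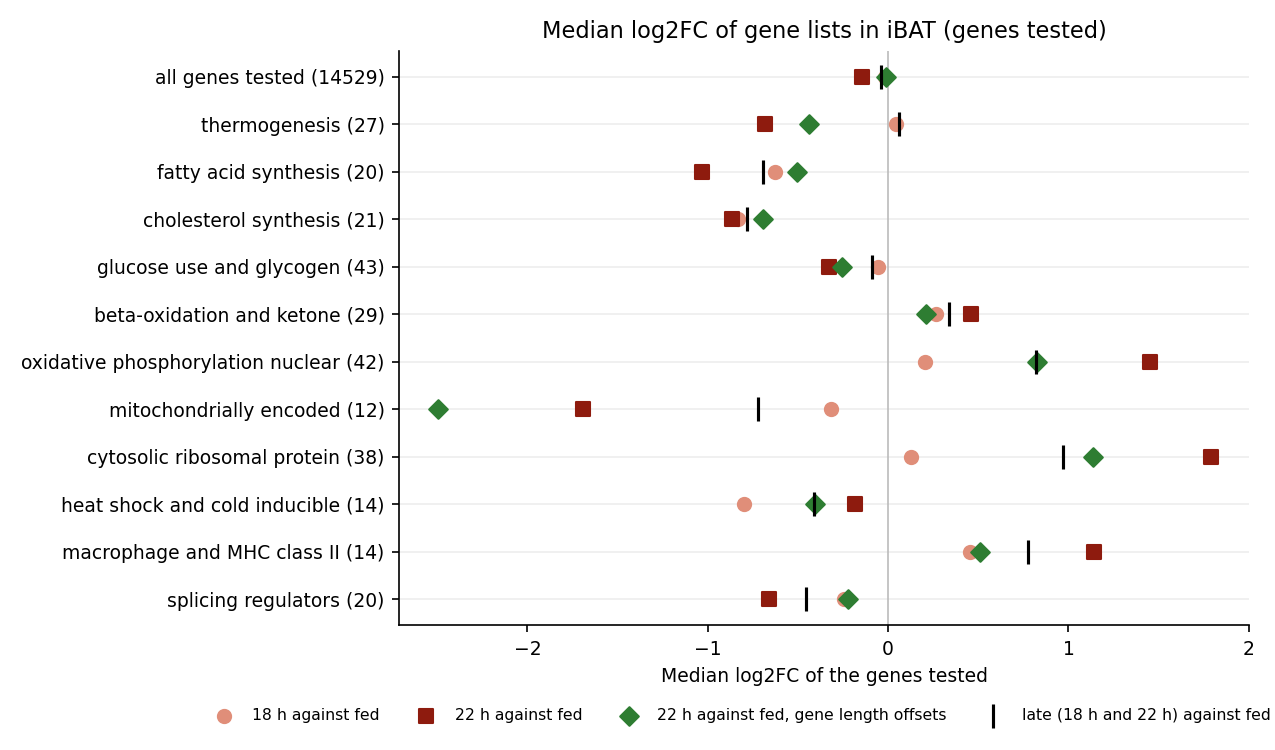
Median log2FC over all tested genes and over 11 lists (number tested in brackets) for 18 h against fed (circles), 22 h against fed without (squares) and with gene length offsets (diamonds), and both late times together (bars). Oxidative phosphorylation and ribosomal protein genes sit highest and transcripts of the mitochondrial genome lowest at 22 h, while the heat shock list is lower at 18 h (-0.80) than at 22 h.

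Some transcripts for lipid uptake and storage left the fed range, though edgeR called 0 of them over both late times. Apoe, the apolipoprotein, lay between 557 and 652 normalized CPM when fed, at 942, 889 and 752 at 18 h and 2013 and 1368 at 22 h. Lpl, the lipase that frees fatty acids from blood lipoproteins, lay between 3714 and 5424, then at 5434, 7207 and 6517 at 18 h and 8332 and 6953 at 22 h. Every late library was above every fed one for both, Lpl by a narrow margin at 18 h replicate 1 (log2FC 0.97 and 0.54, SE 0.228 and 0.157, adjusted p = 0.123 for each). Gpihbp1, which anchors Lpl to the capillary wall, overlapped the fed range at 18 h and rose by 1.87 at 22 h (adjusted p = 0.000223; 1.55 with length offsets). Of the 17 uptake genes 2 lay above and 0 below the fed range (1.84% and 2.54% of all genes), and the median was 0.25. At 22 h 5 rose and 2 fell (5 and 0 with length offsets). Over all genes 13.3% rose and 17.3% fell at that time, and 9.59% and 8.67% with offsets.

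Cidec, which enlarges lipid droplets, had 1364, 1338 and 1390.1 normalized CPM at 18 h and 1646 and 1725 at 22 h, all above the fed range of 922 to 1132 (log2FC 0.58; 0.26 with length offsets). G0s2, the inhibitor of the triglyceride lipase ATGL, had 464, 462 and 717 at 18 h, 1649 and 1378 at 22 h and 384 to 573 when fed. Of its 18 h values 2 lay inside the fed range, and both 22 h values were far above it, where it rose by 1.75 (adjusted p = 0.000174; 0.80 with length offsets). Plin5, which ties droplets to mitochondria, was higher at 22 h without reaching the fold threshold of a DEG (log2FC 0.85, adjusted p = 0.0042). Among 16 triglyceride synthesis genes Gpat3, an acyltransferase, lay above and Lpin1, a phosphatidate phosphatase, below the fed range in all late libraries. Over all genes 1.84% lay above and 2.54% below. The log2FC of Gpat3 and Lpin1 were 0.62 and -0.88 (edgeR adjusted p = 0.123 and 0.123).

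Heat shock genes had low values at 18 h, though edgeR called 0 of them there. Of 14 tested, 7 lay below the fed range in all 3 libraries of 18 h and 1 above it (3.37% and 3.11% of all genes did), and the median log2FC at 18 h was -0.80 beside -0.01 over all genes; at 22 h it was -0.18, over both late times it was -0.41, and 0 were DEGs by edgeR over both. The skeletal muscle markers had medians of -1.29 and 0.37 at these times, with 0 of 29 called or below the fed range at 18 h, and their part in the heat shock values of 18 h was not tested. Hsph1, a large chaperone of the HSP110 kind, lay at 27.7, 47.9 and 218 normalized CPM at 0 h, 34.4, 122 and 79.0 at 2 h, 20.4, 19.6 and 17.9 at 18 h and 11.1 and 22.1 at 22 h. The fed libraries were widely spread, with 0 h replicate 3 the highest, and all late libraries stood below them (log2FC -2.26, SE 0.485, adjusted p = 0.123; DESeq2 0.000842). The highest is among the libraries high in muscle, and with the muscle score as covariate the late log2FC of Hsph1 was -2.03. Hsp90aa1, the inducible HSP90, had 33.7, 40.2 and 29.4 at 18 h and 37.9 and 38.4 at 22 h against 48.7 to 146 (log2FC -1.17). Hspa8 and the small chaperone Hspb1 were low at 18 h (56.2, 70.9 and 55.8 for Hspa8 and 11.6, 13.7 and 13.03 for Hspb1, against fed ranges of 71.9 to 183 and of 16.7 to 34.9) and not at 22 h (142 and 111 for Hspa8 and 36.3 and 25.0 for Hspb1). For both the direct test of 22 h against 18 h was past the threshold, 1.05 and 1.25 (adjusted p = 0.0124 and 0.00625). Cirbp, an RNA-binding protein that is induced by mild cold, stood on the other side, with 26.6, 25.9 and 24.0 at 18 h and 32.8 and 32.2 at 22 h above a fed range of 9.53 to 20.4 (log2FC 0.75, adjusted p = 0.123). Rbm3, the other cold-inducible gene of the list, was among the 7 that lay below the fed range at 18 h.

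Insulin and hormone signalling genes gave single genes and no common direction, with list medians of -0.17 over 27 genes of the insulin pathway and its FoxO targets and -0.22 over 26 receptors. Length offsets turned the former to 0.17, with 16 of 27 positive, and brought the latter to -0.00. Insr, the insulin receptor, and Igf1r, its relative for insulin-like growth factor, were below the fed range in all late libraries, as was the adaptor Grb10. Of the 27 genes 3 thus lay below and 0 above, beside 2.54% below and 1.84% above over all genes. Insr lay between 115 and 158.7 normalized CPM when fed, at 114, 96.7 and 111 at 18 h and at 44.9 and 51.6 at 22 h. Igf1r lay between 9.20 and 24.3, then at 7.91, 6.12 and 6.89 at 18 h and 4.77 and 5.78 at 22 h. Both are long transcripts: the 22 h log2FC of Insr was -1.49 and became -0.23 with length offsets, and that of Igf1r went from -1.39 to 0.03. Ddit4, an inhibitor of mTORC1 that glucocorticoids and FoxO induce, had 37.9, 49.3 and 108 at 18 h and 96.7 and 112 at 22 h against 9.13 to 46.5, with log2FC 1.38 (adjusted p = 0.123); the co-activator Cited2 had a log2FC of 0.95 and the metallothionein Mt1 one of 0.90.

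The natriuretic peptide receptor Npr1 and the prostaglandin receptor Ptger3 had log2FC -0.74 and -1.01 (adjusted p = 0.123 and 0.123). Of 17 clock genes 0 left the fed range in all late libraries, near the shares over all genes (1.84% above and 2.54% below). Their median was -0.34, and -0.14 with length offsets; Dbp, an output gene of the clock, had 0.85 and its regulators Per2 and Arntl -0.80 and -1.46 (adjusted p = 0.133, 0.127 and 0.126), Arntl at under 10 normalized CPM throughout.

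Bnip3, a receptor that marks mitochondria for autophagy, had 220.3, 352 and 381 normalized CPM at 18 h and 567 and 622 at 22 h against 113 to 253 when fed, with 18 h replicate 1 inside the fed range. Map1lc3b, the protein LC3B of the autophagosome membrane, had 172, 233.03 and 203 at 18 h and 444 and 337 at 22 h against 109 to 169.8, all outside it. The log2FC were 1.11 and 0.95 (adjusted p = 0.123 for each), and both rose at 22 h, by 1.58 and 1.45, also with length offsets (1.13 and 2.23). Its relative Bnip3l was higher at 22 h without reaching the fold threshold (log2FC 0.83, adjusted p = 0.00383). Of 22 genes of autophagy and lysosome 2 lay above and 0 below the fed range (1.84% and 2.54% of all genes), and the median was 0.24. At 22 h 5 rose and 2 fell (4 and 0 with length offsets). Over all genes 13.3% rose and 17.3% fell at that time, and 9.59% and 8.67% with offsets.

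Of 16 genes of secreted factors, 2 lay above the fed range in all late libraries and 0 below it. Over all genes these shares were 1.84% and 2.54%. The median log2FC of the list was near 0 (0.17), and with length offsets 8 were positive and 8 negative. At 22 h 3 rose (1 with length offsets) and 4 lay below the fed range, beside 13.3% and 28.6% of all genes. Cfd, the complement factor adipsin, lay between 754 and 1534 normalized CPM when fed, at 2025, 2364 and 2001 at 18 h and 6294 and 3723 at 22 h. Adipoq, which encodes adiponectin, lay between 766 and 1088, then at 1289, 1342 and 1262 at 18 h and 2424 and 1972 at 22 h. All late libraries stood above all fed ones, 22 h replicate 2 highest (log2FC 1.50 and 0.85, adjusted p = 0.123 for each), and both rose at 22 h, by 2.11 and 1.26. With length offsets these became 1.16 and 0.52. The resistin gene Retn overlapped at 18 h and rose at 22 h by 1.71 (adjusted p = 0.00943; 0.0964 with length offsets).

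Macrophage and MHC class II genes had mostly positive values: 13 of 14 had a positive log2FC, 7 with an unadjusted p under 0.05 (14.9% of all genes on that side), and the median was 0.77 (0.42 with length offsets). Inside the fed group the same list was already higher at 2 h than at 0 h, with 13 of 14 positive, a median of 0.62 and 0 DEGs. At 22 h 6 rose, and 3 with length offsets, beside 13.3% and 9.59% of all genes. H2-Aa and H2-Ab1, the chains of the class II molecule that presents antigen, lay above the fed range in all late libraries (1.84% of all genes did). H2-Aa lay between 25.3 and 67.3 normalized CPM when fed, at 71.0, 101 and 74.3 at 18 h and 165.7 and 89.1 at 22 h, and H2-Ab1 between 20.4 and 43.9, then at 50.7, 67.8 and 47.6 at 18 h and 153.01 and 59.8 at 22 h. Their log2FC were 1.10 and 1.17 (SE 0.278 and 0.316, adjusted p = 0.123 for each), and both rose at 22 h, with and without length offsets. The invariant chain Cd74 had 70.7, 92.0 and 65.5 at 18 h and 153.01 and 80.3 at 22 h against 24.7 to 73.3 and overlapped at 18 h. Of 16 genes of T and B lymphocytes only 7 were expressed enough to be tested, and 1 rose at 22 h (13.3% of all genes). Of 9 neutrophil genes 2 were tested. A list of immune genes taken from the text of the paper was chosen on these samples and is no independent evidence. Of its 5 tested members 1 rose and 2 fell at 22 h, beside 13.3% risen and 17.3% fallen over all genes.

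Splicing regulators and long nuclear RNAs had mostly negative values, with 0 DEGs by edgeR at 18 h or over both late times. Of 20 tested, 17 had a negative log2FC, 9 with an unadjusted p under 0.05 (11.6% of all genes on that side), and the median was -0.45, which length offsets brought to -0.21. At 22 h 6 fell and 0 rose, but with length offsets 1 fell and 2 rose. Over all genes 17.3% fell and 13.3% rose at that time, and 8.67% and 9.59% with offsets. Tra2a, a splicing activator, had 28.5, 31.0 and 30.6 normalized CPM at 18 h and 16.5 and 25.0 at 22 h, all below the fed range of 35.0 to 73.2 (log2FC -1.09; -0.78 with offsets). Neat1, the RNA that builds paraspeckles, was also below the fed range in all 5 late libraries (2.54% of all genes were). For Neat1 18 h replicate 1 nearly equalled 0 h replicate 1 (log2FC -1.21, -0.32 with offsets), and the neighbour gene Malat1 had -1.53 and -1.30.

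Several lists of housekeeping genes differed between 22 h and 18 h. In the direct test 24 of 42 nuclear genes of oxidative phosphorylation and 29 of 38 cytosolic ribosomal protein genes were higher at 22 h and 7 of 12 genes of the mitochondrial genome lower, beside 10.2% higher and 12.6% lower over all genes. At 18 h 0 of them were called, but 38 of the 42 had a positive log2FC. Against fed, of 42 nuclear genes of oxidative phosphorylation 28 rose at 22 h and 0 fell, with a median of 1.45 against 0.20 at 18 h; of 38 cytosolic ribosomal protein genes 28 rose and 0 fell, with medians of 1.79 and 0.13. With length offsets 16 and 19 rose, and 0 fell; over all genes 13.3% rose at 22 h and 9.59% with offsets. Transcripts of the mitochondrial genome went down, 8 of 12 at 22 h and 10 of 12 with length offsets, and 0 went up. Over all genes 17.3% fell at 22 h and 8.67% with offsets. Over all genes the median log2FC at 22 h was -0.15, and -0.01 with offsets. The most abundant mitochondrial transcript, mt-Co1, a subunit of cytochrome oxidase, lay between 74516 and 152317 normalized CPM when fed, at 92261, 90650.1 and 75526 at 18 h and 15012 and 38205 at 22 h, where it fell by 2.01 (adjusted p = 0.0025). Nuclear and mitochondrial genes of the same respiratory complexes thus went in opposite directions in these 2 libraries, in which the share of mitochondrial counts and the length trend also stood apart; their part in these calls was not tested.

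The genes with the largest changes at 22 h, by the rule stated in the methods, were on the higher side Rpl39 (3.03), Rpl17-ps9 (2.97), Zfp524 (2.95), Atp5e (2.87) and Etfb. Rpl39, a small ribosomal protein, had 3.40 to 11.3 normalized CPM when fed, 7.95, 11.6 and 9.49 at 18 h and 106 and 32.1 at 22 h. Atp5e, the smallest subunit of the ATP synthase rotor stalk, had 204 to 792 when fed, 379, 371 and 435 at 18 h and 3692 and 1583 at 22 h. At 18 h Atp5e stood inside the fed range and Rpl39 just passed it in replicate 2; 22 h replicate 2, the shallowest library, was the highest for both. Rpl17-ps9 is a pseudogene and Rpl39 has many processed copies, so reads may be split between them and their parents and their levels are uncertain. On the lower side, Zfp871, a zinc finger gene, and Fat4, a giant cadherin, had 0 counts in both 22 h libraries. Against a floor of 3 counts per library, 0.644 normalized CPM on average, Zfp871 (mean 18.3 when fed) was at least 28.4-fold lower and Fat4 (mean 16.4) at least 25.4-fold lower. Gdap10 lay between 11.7 and 41.9 when fed, at 16.2, 21.5 and 32.9 at 18 h and 0.954 and 0.222 at 22 h.

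The same mice gave liver (LIV) and perigonadal white fat (pgWAT), so that the late response of each organ could be set against that of iBAT with the mouse as a block. The response of iBAT differed from that of LIV in 325 genes (2.01% of 16149), 176 more positive (1.09%) and 149 more negative (0.923%) in iBAT. In LIV the fed and the late libraries share no lane, nor do they in pgWAT, so in both organs lane and the late fast cannot be told apart. Both contrasts were run without length offsets, and the part of the 22 h length trend of iBAT in them was not tested. In iBAT alone, offsets made the 22 h rise of G0s2 smaller and left the late log2FC of Acot1 nearly unchanged, as given above. Each difference below comes from the joint fit with the mouse as a block and the log2FC of an organ from a fit of that organ alone, so that the former is not exactly the gap between the latter. G0s2 had a log2FC of 1.05 in iBAT and -1.61 in LIV, with a difference of 2.51 (SE 0.259, adjusted p = 0.000403). Acot1 had 1.71 and -0.64, with a difference of 2.41 (adjusted p = 0.00746). Neither gene was a DEG over both late times in iBAT or in LIV (LIV adjusted p = 0.055 for G0s2 and 0.385 for Acot1), so the test speaks for the difference between the organs and not for a change in each. The desaturase Scd2 (difference -2.17, adjusted p = 0.0338), Mlxipl (-1.29, 0.0428) and Tra2a (-1.26, 0.0305) had more negative values in iBAT than in LIV (LIV log2FC -0.15, 0.05 and 0.19). Fasn did not separate the organs, with -1.11 in iBAT and -1.31 in LIV (difference 0.13, adjusted p = 0.878). Against pgWAT edgeR called 0 differences (0% of 17293, 0 more positive and 0 more negative; 1135 genes at an unadjusted p under 0.05), and no other tool was run on this contrast. In that depot itself edgeR called 0 DEGs of the late fast against fed; Acly had a log2FC of -1.73, Fasn of -1.87 and Mlxipl of -1.67 (adjusted p = 0.308 for each), beside -2.07, -1.11 and -1.39 in iBAT.

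Promoter windows of 300 bases (250 before the start of a gene to 50 after it, RefSeq, GRCm38.p6) were at hand for 10157 of the 14529 genes tested. Both strands were searched for GTAAACA, the core bound by FoxO factors, CACGTG, the E-box of clock and bHLH factors, TTATGTAA, the D-box, and, added after the values were seen, TTCNNGAA, a pair of heat shock elements. GTAAACA stood in 3.19% of all windows, in 8 of the 200 genes above the fed range in every late library and in 9 of the 282 below it. CACGTG stood in 11.7%, in 23 of the 200 and in 34 of the 282, and TTATGTAA in 0.689%, in 0 and in 1. TTCNNGAA stood in 8.31% of all windows, in 13 and 23 of these genes and in 3 of the 10 heat shock genes with a window. The windows of Acot1 (chr12:84009252-84009551, plus strand) and Hsph1 (chr5:149636287-149636586, minus strand), 1 of 2 windows of that gene, are shown because Acot1 was the 18 h DEG and Hsph1 left the fed range in a list low at 18 h; both were picked after their values were seen, and they are printed with matches to any of the 4 motifs in capitals. Hsph1 holds TTCNNGAA at 2 places, on either side of the gene's start, and CACGTG beside it; Acot1 holds none of the 4 in its window.
Acot1: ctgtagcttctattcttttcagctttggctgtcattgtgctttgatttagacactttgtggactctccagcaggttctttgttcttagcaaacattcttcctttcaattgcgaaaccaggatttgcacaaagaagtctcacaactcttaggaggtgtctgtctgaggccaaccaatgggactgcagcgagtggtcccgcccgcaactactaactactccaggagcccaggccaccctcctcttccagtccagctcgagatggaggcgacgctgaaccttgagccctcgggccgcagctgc
Hsph1: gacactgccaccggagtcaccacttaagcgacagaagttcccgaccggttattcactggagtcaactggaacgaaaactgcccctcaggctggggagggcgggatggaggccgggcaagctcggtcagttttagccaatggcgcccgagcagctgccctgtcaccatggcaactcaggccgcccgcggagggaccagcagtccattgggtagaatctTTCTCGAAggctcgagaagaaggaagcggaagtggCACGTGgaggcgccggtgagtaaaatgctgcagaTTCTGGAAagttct

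For the remaining lists, the median log2FC over both late times was 0.14 for 17 genes of lipolysis and the lipid droplet, 0.24 for 18 glucocorticoid targets, 0.24 for 19 genes of the ATF4 response, 0.01 for 18 chaperones of the endoplasmic reticulum, 0.18 for 12 interferon-stimulated genes and -0.01 for 13 cell cycle genes. Of these, 1 lipid droplet gene (Cidec) and 1 interferon-stimulated gene (Irf7) lay above the fed range in all late libraries. Below it lay 2 chaperone genes (Hsp90b1 and Atf6). Over all genes 1.84% lay above and 2.54% below. At 22 h 6 glucocorticoid targets rose and 3 fell (2 and 2 with length offsets), and 3 were higher and 3 lower at 22 h than at 18 h in the direct test. Over all genes 10.2% were higher and 12.6% lower in that test, and 9.59% rose and 8.67% fell against fed with offsets. Of the other lists, 2 lipid droplet genes rose and 1 fell, 3 ATF4 genes rose and 1 fell, 1 chaperone gene rose and 3 fell, 2 interferon-stimulated genes rose and 1 fell, and 1 cell cycle gene rose and 0 fell. Over all genes 13.3% rose and 17.3% fell at 22 h, and the shares of these lists are near or below that but for the risen glucocorticoid targets. Length offsets turned the medians of the chaperone, interferon and cell cycle lists to -0.07, -0.02 and 0.06.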

How the data were processed

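Polyadenylated RNA of each depot was made into stranded libraries and sequenced in pairs of 150 bases on a HiSeq 4000. The authors mapped reads with TopHat2 2.1.1 to GRCm38.p5, counted those that mapped to 1 place over exons of Gencode M16 with HTSeq 0.9.1 and deposited the counts unnormalized. The counts of the 11 compared libraries were read by organ, fasting hours and replicate number in the sample titles, with those of LIV and pgWAT from the same mice; the other organs were not used, and 0 columns were unmatched.

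Tests were run with edgeR 4.0.16 (TMM, robust quasi-likelihood, Benjamini-Hochberg) in R 4.3.3, on the libraries compared; 22 h against 18 h was a contrast with the fed libraries in the fit, and 2 h against 0 h a contrast in a fit with 4 groups. Code was tested on simulated data. DESeq2 1.42.0, other scaling factors, filters, blocks, covariates and libraries were alternatives. Gene length offsets remove a lowess trend (span 0.3) of log2 level on Gencode M21 exonic length, known for 98.2% of tested genes, from each library. Because reads were counted over whole transcripts, a library with degraded or otherwise unevenly covered RNA can shift counts by gene length. Intervals and p-values measure the spread between mice of a group. For the late fast against fed, that spread also holds the gaps between 18 h and 22 h and between 0 h and 2 h.

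Genes named are Ucp1 and Cidea; the 10 (late) or 5 (each late time) DEGs with the largest absolute log2FC in each direction, of a mean of at least 10 normalized CPM, without overlap with the fed range and not a Gm or Rik model; the 4 genes with the lowest p of each of 27 lists at late or 18 h; and the most abundant marker of each of 13 cell types. The late part named 0, and some genes that the rule names are not reported here. Members and lists were chosen with earlier results of these data known. Summaries used Python 3.11.15 with pandas 2.3.3, numpy 2.4.6 and scipy 1.17.1, and plots matplotlib 3.10.9.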

Additional observations from a re-analysis of the deposited data

Results flagged for a closer look

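In 11 of 174 groups of 5 or 6 libraries, 1 library lay far from the rest, where chance does so in about 1 group in 20, so that the number is close to what chance gives. Of these, 22 h replicate 2 was the highest for Rpl39 (106 normalized CPM), Rpl17-ps9 (43.3), Zfp524 (39.8), Cyp51 (36.6) and H2-Ab1 (153.01) among the late libraries, and 18 h replicate 1 for Scd2 (89.9) and total counts (27.8 in units of 1e6). Among the fed libraries 0 h replicate 2 was far above the others for Igf1r (24.3) and Kdr (309) and 0 h replicate 3 for Mt1 (84.6), while 2 h replicate 3 was far below them for Acaca (580.1).

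For 26 of 83 named genes the response at 22 h differed from that at 18 h in the direct edgeR test, beside 22.8% of all genes. Rpl17-ps9, Zfp524, Rpl39, Atp5e, Gdap10 and Gprin3 were named for their change at 22 h, so their part in the count was fixed by that choice. Etfb was named both for that change and by its list. Cox7a1, Prdm16, Cpt1a, Kdr and Pxmp2 were chosen after their values were seen. The count can therefore not be compared fairly with the share over all genes. The log2FC at 22 h less that at 18 h was positive for Rpl17-ps9 (2.96), Zfp524 (2.95), Rpl39 (2.82), Atp5e (2.74), Etfb (2.70), Cox8b (2.07), Cox7a1 (1.83), Gpihbp1 (1.57), G0s2 (1.47), Hspb1 (1.25), Cfd (1.23), Mt1 (1.19), Pxmp2 (1.13) and Hspa8 (1.05). It was negative for Gdap10 (-5.73), Gprin3 (-3.69), Cpt1a (-2.65), Malat1 (-1.91), mt-Co1 (-1.69), Stard4 (-1.68), Prdm16 (-1.66), Cdh5 (-1.48), Acot11 (-1.37), Kdr (-1.33), Insr (-1.15) and Lpin1 (-1.03). Gdap10 was at the floor of detection in 22 h replicate 2 and below it in replicate 3, so its value is not an exact fold. The 2 libraries at 22 h also carry the trend with gene length and share no lane with fed libraries. The part of these in the differences was not tested.

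For 6 of 83 named genes the response of iBAT differed from that of LIV in the same mice (2.01% of all genes). The values of iBAT less LIV were positive for G0s2 (2.51), Acot1 (2.41) and Pxmp2 (1.55). They were negative for Scd2 (-2.17), Mlxipl (-1.29) and Tra2a (-1.26). No length offsets were used in this contrast, and the part of the length trend in it was not tested.

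The 22 h library that enters no comparison, replicate 1, has a length slope of -0.393, outside the fed range of -0.116 to 0.105, so the trend is present in each library of that time.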

How the results depend on the processing

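Of 83 named genes, 75 kept the sign of their late log2FC under every alternative, and of 2155 values for named genes 1981 kept both sign and side of the threshold of 0.05, 145 newly passed it and 29 changed sign. DESeq2 put 59 of the 83 past it. The fit with all 17 libraries, in which each fasting time was a group of its own, put 77 past it.

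The count for the late fast against fed, 0, became 664 with DESeq2 and 1842 with all 17 libraries and each fasting time as its own group. It became 3 without a filter (Acot1, Parm1 and Slc5a3), 2 with 22 h replicate 1 included (Acot1 and Parm1) and 1 with 0 h alone as fed (Sqle). The count ran from 0 to 6 when single libraries were left out. With length offsets, chosen after the data were seen for this purpose, that range was 0 to 4. Lanes 5 and 8 hold no 22 h library, so with these alone and lane as covariate the late group is 18 h replicates 1 and 3; the count stayed 0, with 730 genes at an unadjusted p under 0.05, for the late fast and 18 h alike. At 18 h the count of 1 became 34 with DESeq2, 2 without a filter (Acot1 and Parm1), and 0 with 3 groups in the fit, with lanes 5 and 8 alone or with the muscle score as covariate, and ran from 0 to 1 over single libraries. At 22 h 4447 became 2654 with length offsets and ran from 2851 to 5788. For 22 h against 18 h 3307 became 1866 with length offsets and 4969 without a fold threshold, which counts more genes by construction, and ran from 1674 to 5036. For 2 h against 0 h, a comparison added after the data were seen, 51 became 109 with DESeq2 and 187 without a filter, and ran from 0 to 194. Where a library was left out at 22 h, the lone library was assumed to vary like the other groups. The cause was not tested.

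Values for lanes 5 and 8 are those of 18 h replicates 1 and 3 alone, so that in them the lack of 22 h and the lane cannot be told apart. The late log2FC of Ucp1 turned negative with 0 h alone as fed (-0.281), with length offsets (-0.248) and with lanes 5 and 8 (-0.108). It ran from -0.0392 to 0.335 with single libraries left out, and was 0.563 with 2 h alone as fed. That of Ppara turned negative with 22 h replicate 1 included (-0.0778), with all 17 libraries (-0.0168) and against 2 h alone (-0.497), and ran from -0.185 to 0.262 over single libraries. That of Acta1 turned positive with the muscle score as covariate (0.312) and with lanes 5 and 8 (0.141), and ran from -0.597 to 0.289. That of Cpt1a turned positive with length offsets (0.0536) and with lanes 5 and 8 (0.311), and ran from -0.411 to 0.0824. Against 2 h alone, chosen after the data were seen, Sc5d (0.0740), Insig1 (0.183) and Gprin3 (0.0495) turned positive, and Rpl17-ps9 turned negative with lanes 5 and 8 (-0.0269). The difference in muscle level, 0.362, ran from -0.146 (without 0 h replicate 1) to 0.861 over single libraries, and was -0.0129 without 22 h replicate 2. The cause was not tested.

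With the replicate number as a replicate block, the count at 18 h was 0 (Acot1 1.74, adjusted p = 0.152), that at 22 h 4516 and that for 2 h against 0 h 43, and Acta1 turned positive (0.368); with the replicate block and length offsets Ucp1 was at -0.156 and Cpt1a at 0.0826. The block changed no other count by more than 1.5 times. Libraries with the same number had a mean correlation of 0.157 (lowest -0.217; over 0.1 in 20 of 40 pairs) against -0.0788 for other numbers. Since not every pair was over 0.1, the mice were taken as unpaired, but all 3 pairs were over it for 0 h with 8 h, 0 h with 12 h and 2 h with 12 h.

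Several limits bear on the whole. The 22 h group has 2 libraries, among them the shallowest (3.16 in units of 1e6), in which genes under about 1 CPM are not detected. Fed and 22 h libraries share no lane. The length offsets assume that most genes of a given length do not change, and would take away a real response that follows length. The fed group joins 0 h and 2 h, which differ in sterol and lipid synthesis genes. Food was withdrawn at different clock hours, so that hours of fasting and hours of the day without food cannot be told apart. Changes in cell numbers were not measured.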

Other observations

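The libraries of 8 h and 12 h belong to neither group, and their place differs between genes. Acot1 had 11.6, 3.34 and 2.12 normalized CPM at 8 h and 10.3, 3.71 and 14.9 at 12 h, and Sqle had 4.71, 5.93 and 8.15 and 5.74, 7.97 and 6.90. Hk2 had 227, 229 and 315 at 8 h and 124, 453 and 237 at 12 h, and Cidea 2109.7, 1747 and 1535 and 2263, 1855 and 2939.7. The muscle marker sum of 12 h replicate 3, 21079.7, was the highest of the 18 iBAT libraries. The left-out 22 h library had 18.97 for Acot1, 0.744 for Sqle, 112 for Hk2 and 3429 for Cidea. No test was made on these libraries by themselves.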
